A study of Solanum lycopersicum with 18 samples.

Results

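The H3K27me3 landscape of the tomato mutant *crel-2* was compared with that of the wild type in fixed windows of 1 Mb along the 12 chromosomes. Each chromosome was divided into bins of 1 Mb counted from its first base, up to the end of the last peak in any peak list. This gave 766 bins, of which 756 held a peak in at least 1 of the 4 lists and 10 held none in any list. In each bin and each list, the covered length (kb of the bin that lay under a peak) and the number of peaks (each placed by its midpoint) were determined. The 766 bins were set by position alone, and bins rather than single lost or gained sites were the unit of the tests. The bins named below were picked from them by their values.

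H3K27me3, in which lysine 27 of histone H3 carries 3 methyl groups, is deposited by Polycomb Repressive Complex 2 (PRC2) and is found in plants mostly over repressed genes. VIL proteins are PHD-finger proteins that act together with PRC2, and were first described in Arabidopsis for the silencing of a flowering repressor by cold. Tomato chromosomes have gene-rich euchromatin towards their ends and long stretches of gene-poor, repeat-rich heterochromatin around the centromeres. A window of 1 Mb therefore shows where along this arrangement the mark was changed, but not which gene was affected.

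The series holds 18 libraries, and the 4 used here are H3K27me3 ChIP-seq libraries, 2 from wild-type and 2 from *crel-2* plants of *Solanum lycopersicum*. Chromatin was taken from shoot apices with their expanding leaves, harvested from plants grown on soil for 28 days. The wild type is the cultivar M82, and *crel-2* is a fast-neutron deletion allele, from a mutant population in the same background, of the VIL gene *CRAWLING ELEPHANT* (*CREL*), a relative of Arabidopsis *VRN5/VIL1*. The GEO labels of the ChIP libraries say only *crel*, and the allele name is that given in the study. A single allele was profiled, so an effect of *CREL* cannot be told apart from that of any other mutation of this line. Apices were weighed out for each replicate, and the labels do not say whether replicates were grown separately, so the spread between them may be technical. A peak is known only by its first and last base on SL2.40 sequence names, without a height or score. The number of reads behind a peak is therefore unknown, and a bin without a peak is one in which no peak was called, not one shown to lack the mark. Read depth per library was not analysed here, and its part in the differences below was not tested.

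Fewer but wider peaks were found in *crel-2*, and less of the genome lay under them. On the 12 chromosomes the wild-type lists held 17718 and 16098 peaks and the *crel-2* lists 8734 and 8914, so that *crel-2* had 52.2% of the wild-type number (49.3 to 55.4% over the 4 pairings of a *crel-2* with a wild-type replicate). The covered length was 58.3 and 55.8 Mb in the wild type and 41.0 and 43.3 Mb in *crel-2*, or 73.9% of wild type (70.3 to 77.6%). The genotypes did not overlap in either measure. With 2 replicates a side, the smallest p that an exact two-sided permutation test can give is 0.333, and that was the p for the covered length. The mean peak width was 3289 and 3469 bp in the wild type and 4689 and 4863 bp in *crel-2*. The median bin had 45.2 and 45.0 kb under peaks in the wild-type replicates and 30.6 and 33.2 kb in the *crel-2* replicates, whereas the most covered bin reached 406 and 400 kb in the wild type and 443 and 457 kb in *crel-2*. Replicates were close to each other in single bins as well, with a median absolute difference of 2.07 kb per bin within the wild type and 2.10 kb within *crel-2*, against 10.8 to 12.04 kb between genotypes.

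The net loss of 14.9 Mb was the balance of many falls and fewer rises. The mean covered length was lower in *crel-2* in 465 bins, which together fell by 18.9 Mb, and higher in 289 bins, which together rose by 4.02 Mb. The fall was spread over many bins, as 80 bins were needed to reach 50% of it. Each bin was then tested with limma on log2(covered kb + 5), with Benjamini-Hochberg adjustment over the 756 bins and a threshold of 0.05. By this test 364 bins (48.1%) were lower in *crel-2*, 164 bins (21.7%) were higher and 228 were not called. The calls include bins with very little coverage. When only the 595 bins with a mean of at least 10 kb were tested, 314 were lower and 144 higher. Both *crel-2* replicates lay below both wild-type replicates in 416 bins (55%) and above both in 225 bins (29.8%). For the number of peaks, tested as log2(number + 1), 353 bins (46.7%) were lower and 31 (4.1%) were higher. These counts were 202 lower and 328 higher after scaling to the same total, and 166 to 211 lower without 1 replicate, 166 and 191 without wild-type replicates 1 and 2 and 197 and 211 without *crel-2* replicates 1 and 2. Bins are neighbours on a chromosome and not independent, and the changes of adjacent bins were correlated (r = 0.42 over 734 pairs of neighbours, as a description). The fit shares its estimate of spread across bins, and the replicates may be technical. The p-values and intervals of single bins therefore overstate the evidence from 2 replicates a side.

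The balance of lower and higher bins depended on the scale. The 4 lists differ in total, and when each was scaled to the same total covered length the median log2 change of all bins moved from -0.20 to 0.13, a shift of 0.33. On that relative scale 280 bins (37%) were lower and 354 (46.8%) were higher, so that lower bins made up 44.2% of the calls instead of 68.9%. All 280 bins lower after scaling were among the 364, while 23 of the 364 turned to higher. The number of higher bins also rested on the wild-type replicates, since it was 71 without wild-type replicate 1 and 69 without wild-type replicate 2. Scaling multiplies every bin of a list by the same factor, so it shifts every ratio given below in the same direction, while the ranking of bins by their difference in kb can change.

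**Figure D1:**
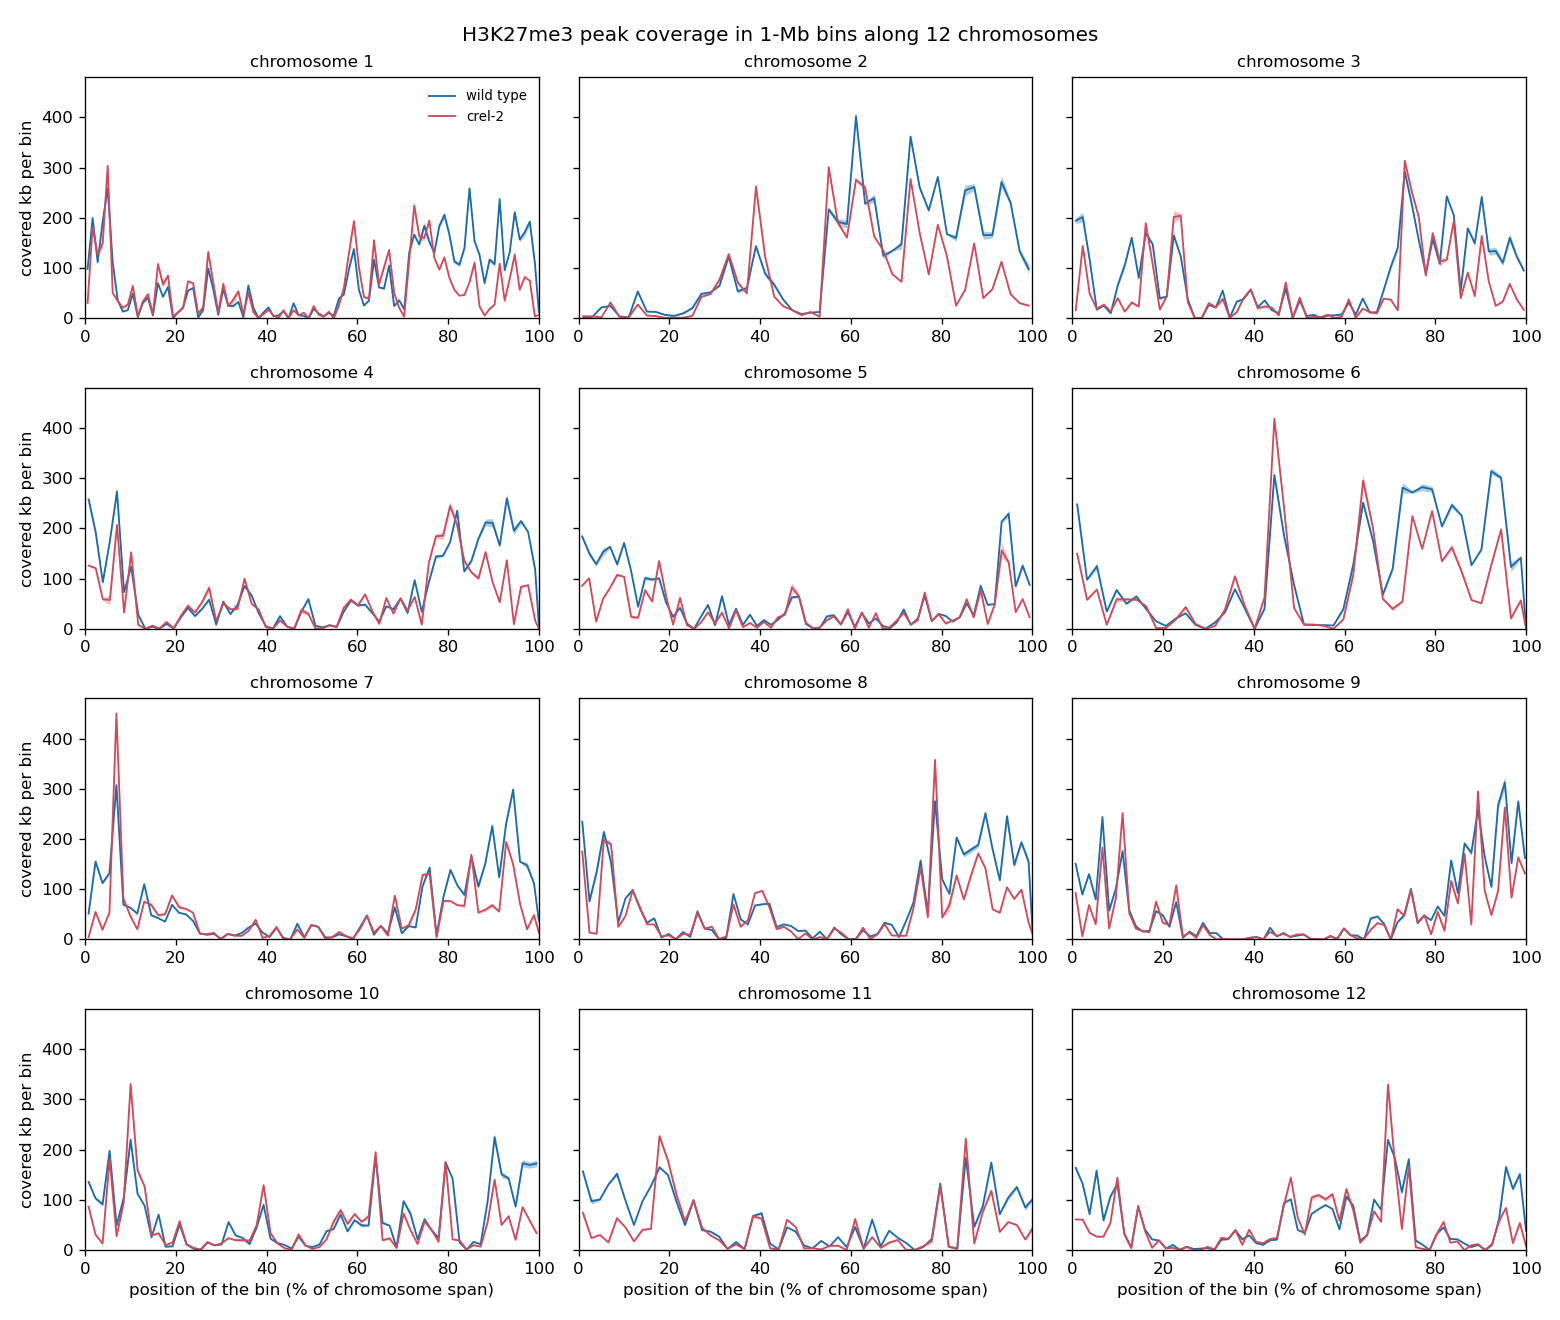
Covered kb in each 1-Mb bin (y axis) along the 12 chromosomes (x axis, position of the bin as % of the span to the last peak). Lines are the means of 2 replicates of wild type (blue) and crel-2 (red), and shaded bands span the replicates. The blue line lies above the red one towards the ends of most chromosomes, the lines run close together in the middle, and single bins such as the one at 6.90% of chromosome 7 are higher in crel-2.

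The loss of coverage was strongest near the chromosome ends and was not seen in the summed coverage of the middle. When bins were grouped by deciles of the chromosome span, decile 10 held 12.6 and 11.9 Mb under peaks in the wild type but 5.38 and 5.58 Mb in *crel-2*, or 44.6% of wild type. In this decile 78 of the 82 tested bins (95.1%) were called lower and 1 was called higher, against 48.1% and 21.7% of all tested bins. Decile 1 held 9.17 and 8.70 Mb in the wild type and 5.42 and 5.57 Mb in *crel-2* (61.5%), and decile 9 was similar at 61.8%. Inwards the ratio rose to 90.5% in decile 2 and 84.1% in decile 8. From decile 3 to decile 7 it lay between 99.3 and 114%, and in deciles 3, 5 and 6 it was over 100% in all 4 pairings. These middle deciles are poor in H3K27me3 in the wild type. Decile 4, for example, had 3.24 and 3.17% of its length under peaks in the wild type and 3.17 and 3.43% in *crel-2*, compared with 15.2 and 14.4% against 6.48 and 6.72% in decile 10. Of the fall of 18.9 Mb, 6.81 Mb came from decile 10, 3.80 Mb from decile 9 and 3.74 Mb from decile 1.

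**Figure D2:**
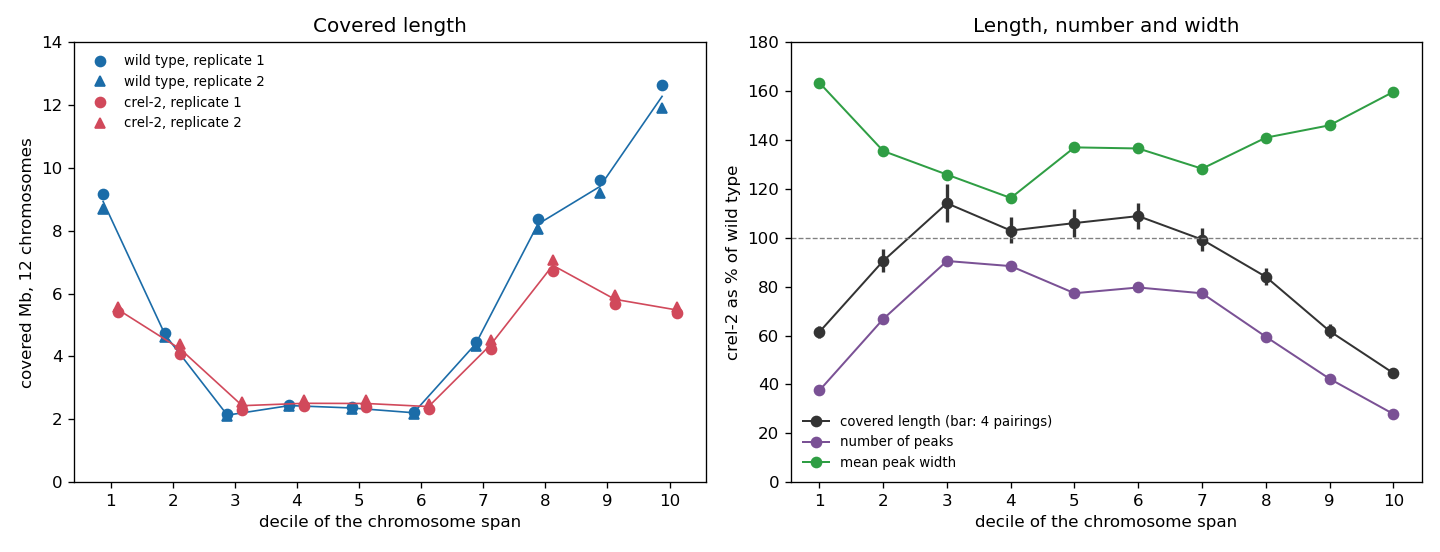
Left, covered Mb summed over the 12 chromosomes (y axis) in each decile of the chromosome span (x axis), with 1 symbol per replicate and lines through the genotype means. Right, crel-2 as % of wild type for covered length (bars span the 4 pairings of replicates), number of peaks and mean peak width. Covered length was 44.6% of wild type in decile 10 and 106% in decile 5, and the number of peaks was under 100% in every decile.

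The same gradient was seen with absolute distance from the nearest end of the span. In the outermost 2 Mb, 7.20 and 6.79 Mb were covered in the wild type and 2.95 and 2.98 Mb in *crel-2* (42.3%). The ratio was 55.6% at 2 to 5 Mb, 66.2% at 5 to 10 Mb, 80.2% at 10 to 15 Mb, 94.5% at 15 to 20 Mb and 100.1% at 20 to 25 Mb. Further than 25 Mb from an end, 4.32 and 4.29 Mb were covered in the wild type and 4.57 and 5.00 Mb in *crel-2*, which is 111% (105.9 to 116.6%). The ranges of the 4 pairings did not overlap between the 0 to 2, 2 to 5, 5 to 10 and 10 to 15 Mb classes. Expressed as a share of the total of its own list, the covered length was 57.4% of wild type in the outermost 2 Mb and 150.4% beyond 25 Mb.

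The position effect was summarized for each library as the ratio of outer to interior coverage, where interior is the central 50% of the span (382 bins) and outer is the rest (384 bins). Outer bins held 41.6 and 39.7 Mb in the wild type and 25.6 and 26.8 Mb in *crel-2*, or 64.4% of wild type (61.4 to 67.5%). Interior bins held 16.7 and 16.1 Mb in the wild type and 15.4 and 16.5 Mb in *crel-2*, or 97.4% (92.5 to 102.5%), so that the genotypes overlapped. The log2 of outer over interior was 1.32 and 1.30 in the wild type and 0.73 and 0.70 in *crel-2*. The difference of -0.60 was many times the spread between replicates, and its exact permutation p was 0.333, the smallest that this design allows. Outer bins took 71.4 and 71.1% of all covered length in the wild type and 62.4 and 61.9% in *crel-2*. They gave 86.2% of the fall, whereas 54.4% of the rise came from interior bins. Calls were made in both zones. Of the 382 tested outer bins 237 (62.0%) were lower and 66 (17.3%) higher. Of the 374 tested interior bins 127 (34.0%) were lower and 98 (26.2%) higher. Over all tested bins the shares were 48.1% and 21.7%. On the unscaled lengths the interior ratio near 100% was thus a balance of falls and rises rather than a lack of change. After scaling to the same total, 84 interior bins were lower and 213 higher, and 196 outer bins were lower and 141 higher.

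All 12 chromosomes lost coverage, and on every one of them the loss was larger in the outer bins. The ratio to wild type ran from 67.9% on chromosome 5 to 83.1% on chromosome 12. Fitted with limma over the 12 chromosomes, the log2 changes ranged from -0.56 to -0.27, and the largest limma adjusted p was 3.2e-05. This fit shared 1 estimate of spread over the 12 chromosomes, which come from the same 4 libraries and are not independent. These p-values therefore overstate the evidence from 2 replicates a side. For the total over all chromosomes the exact permutation p was 0.333, the smallest possible. After scaling to the same total, 6 chromosomes were lower, chromosomes 1, 7, 10 and 12 were higher, and chromosomes 4 and 9 were not called. The outer bins of chromosome 2 kept 42.3% of the wild-type coverage, the lowest outer ratio of the 12, and its interior bins 93.2%. The outer ratio was lower than the interior ratio on all 12 chromosomes in all 4 pairings. Interior coverage exceeded the wild type in all pairings on chromosome 1 (118%), chromosome 7 (111%) and chromosome 12 (108%), and was below it in all pairings on 7 chromosomes. The 2 ends of a chromosome were often unequal. The last decile lost more than the first on 9 of 12 chromosomes, and on chromosome 1 the first decile kept 89.0% while the last kept 42.0%. Chromosome 11 was an exception, with 32.4% in the first decile and 49.0% in the last. The last decile ranged from 30.4% on chromosome 2 to 61.3% on chromosome 9.

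The change was also related to how much H3K27me3 a bin carried in the wild type, and this relation was different in outer and interior bins. Bins were classed by the covered length in one wild-type replicate and compared with the other, in both directions, so that a chance high in the classing replicate did not enter the ratio. Bins of 100 to under 200 kb in the wild type (166 to 171 bins) kept 65.7% and bins of 200 kb or more (60 to 65 bins) kept 72.0%, compared with 94.4% in bins of 25 to under 50 kb and 86.2% in bins of 10 to under 25 kb, so the ratio did not fall steadily with wild-type coverage. Among outer bins, those of 10 to under 25 kb kept 78.7%, those of 25 to under 50 kb kept 88.9%, those of 50 to under 100 kb kept 70.8% (62.2 to 79.9%), those of 100 to under 200 kb kept 59.1% (56.8 to 61.5%) and those of 200 kb or more kept 65.6% (63.9 to 67.2%). Interior bins of 10 to under 25 kb kept 90.2%, and those of 50 kb or more stayed close to the wild-type level. At 50 to under 100 kb the interior ratio was 100.4% (95.04 to 105.8%), at 100 to under 200 kb it was 99.2% (94.3 to 104.2%, 28 to 29 bins) and at 200 kb or more it was 96.0% (92.8 to 99.3%, 12 bins). The 2 zones did not overlap in any class from 50 kb upwards. In the interior, high wild-type coverage did not go with a low ratio. Bins under 10 kb showed the opposite order, with 107.7% (87.1 to 128.9%) in outer and 85.1% (78.7 to 91.7%) in interior bins, and there the ranges of the zones overlapped. A bin of that class covered 4.27 kb in the wild type on average.

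**Figure D3:**
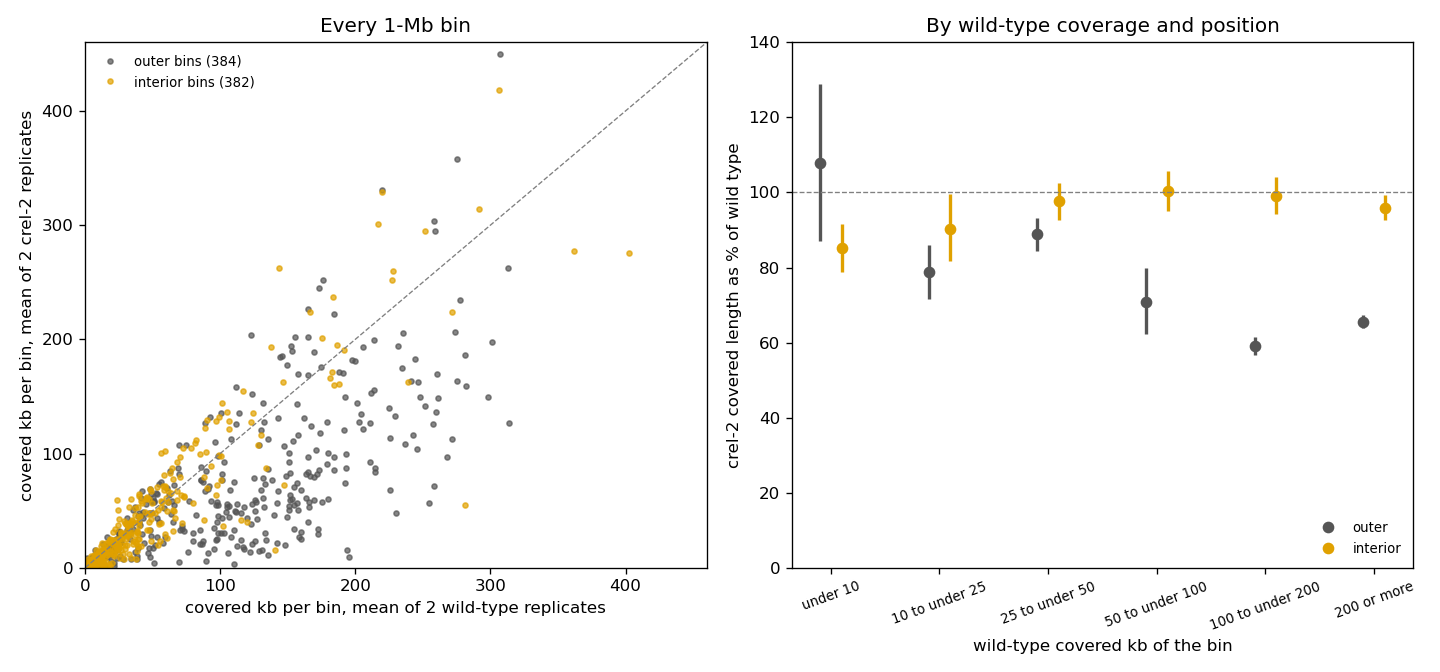
Left, mean covered kb of each bin in crel-2 (y axis) against the wild type (x axis) for 384 outer and 382 interior bins, with the line of equality dashed. Right, crel-2 covered length as % of wild type (y axis) in classes of wild-type covered kb (x axis), with points at the mean and bars spanning both choices of classing replicate and both crel-2 replicates. Outer bins of 100 to under 200 kb lie at 59.1% and interior bins of that class at 99.2%.

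The coverage of the surrounding bins gave a similar separation without using chromosome position. This grouping was chosen after seeing the data. Each bin of 100 to under 200 kb was sorted by the mean wild-type coverage of the 3 bins on either side of it, the bin itself left out. Where the neighbours averaged 100 kb or more (123 to 131 bins), *crel-2* kept 56.5% (53.8 to 59.3%). Where they averaged 50 to under 100 kb (33 to 34 bins) it kept 93.5%, and where they averaged under 50 kb (7 to 9 bins) the ratio was 105.6% (101.9 to 109.1%). Bins of 50 to under 100 kb behaved alike, with 54.1% among rich neighbours, 97.1% among intermediate and 102.5% among poor ones. In these classes the ratio was thus lowest among rich neighbours and close to the wild-type level among poor ones. The groups also differed in position. In the class of 100 to under 200 kb, 14 of the 123 to 131 bins with rich neighbours were interior, and 3 to 5 of the 7 to 9 with poor ones. Distance from the end still mattered inside the rich stretches. Bins of 100 to under 200 kb with neighbours of 100 kb or more kept 43.5% within 5 Mb of an end, 51.6% at 5 to 10 Mb and 83.1% (79.4 to 86.7%) further in. Neighbourhood and distance overlap in these chromosomes, and the part of each was not tested.

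The 10 largest falls lay mostly near the far ends of their chromosomes. The largest was at bases 33000001 to 34000000 of chromosome 6 (72.8% of the span), where the wild-type replicates had 291 and 271 kb under peaks and the *crel-2* replicates 53.1 and 56.1 kb. Coverage there was 19.4% of wild type, a log2 change of -2.26 (95% interval -2.41 to -2.12, limma adjusted p = 5.6e-06), and 84 and 76 peaks became 14 and 12. The deepest of the 10 in proportion was at bases 60000001 to 61000000 of chromosome 4. It had 203 and 187 kb in the wild type and 10.3 and 8.32 kb in *crel-2*, or 4.76% (log2 change -3.81), and its 77 and 69 wild-type peaks were reduced to 4 and 4. The first 1 Mb of chromosome 3 behaved similarly, from 200 and 188 kb to 15.6 and 16.0 kb (8.15%, log2 change -3.26). Only called bins without overlap between the genotypes could enter this list, so the p-value and interval above describe a picked bin. Chromosome 2 contributed 3 of the 10, at 42 to 43 Mb (265 and 244 kb against 56.8 and 55.8 kb), at 47 to 48 Mb (234 and 226 kb against 46.0 and 49.4 kb) and at 46 to 47 Mb (284 and 259 kb against 112.4 and 112.5 kb). The others were at 76 to 77 Mb of chromosome 1 (27.6% of wild type), 42 to 43 Mb of chromosome 6 (40.5%), 63 to 64 Mb of chromosome 9 (36.2%) and 58 to 59 Mb of chromosome 7 (30.1%). In all 10 the number of peaks was called lower as well. After scaling, their log2 changes were -3.46 to -0.81. Scaling shifts all bins in the same direction, so that bins picked for the largest falls stayed lower followed largely from the choice.

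In most of the 10 largest rises the number of peaks was not called higher. The largest was at bases 4000001 to 5000000 of chromosome 7. Its covered length was 309 and 306 kb in the wild type, the highest of that chromosome, and 443 and 457 kb in *crel-2*, the most covered bin of the mutant. This was 146% of wild type (log2 change 0.54, 95% interval 0.46 to 0.63, limma adjusted p = 4.1e-05), with 71 and 63 peaks in the wild type and 70 and 72 in *crel-2*. Peaks in this bin were thus wider rather than more numerous, and the 4 bins before it were all called lower, the nearest at 137 and 128 kb against 53.6 and 53.4 kb. The second was at bases 19000001 to 20000000 of chromosome 2, with 143 and 143 kb in the wild type and 255 and 270 kb in *crel-2* (183%, log2 change 0.85). Here the number of peaks rose too, from 30 and 25 to 49 and 46. At 20 to 21 Mb of chromosome 6, 313 and 299 kb in the wild type became 410 and 426 kb in *crel-2* (137%). The remaining 7 were at 6 to 7 Mb of chromosome 10 (150.4% of wild type), 45 to 46 Mb of chromosome 12 (150.1%), 27 to 28 Mb of chromosome 2 (139%), 49 to 50 Mb of chromosome 8 (129.9%), 15 to 16 Mb of chromosome 3 (166%), 7 to 8 Mb of chromosome 9 (143%) and 51 to 52 Mb of chromosome 4 (142%). Among the 10, the number of peaks was called higher in 2, on chromosomes 2 and 10, and lower in 1, on chromosome 9, where 44 and 43 peaks became 35 and 32.

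**Figure D4:**
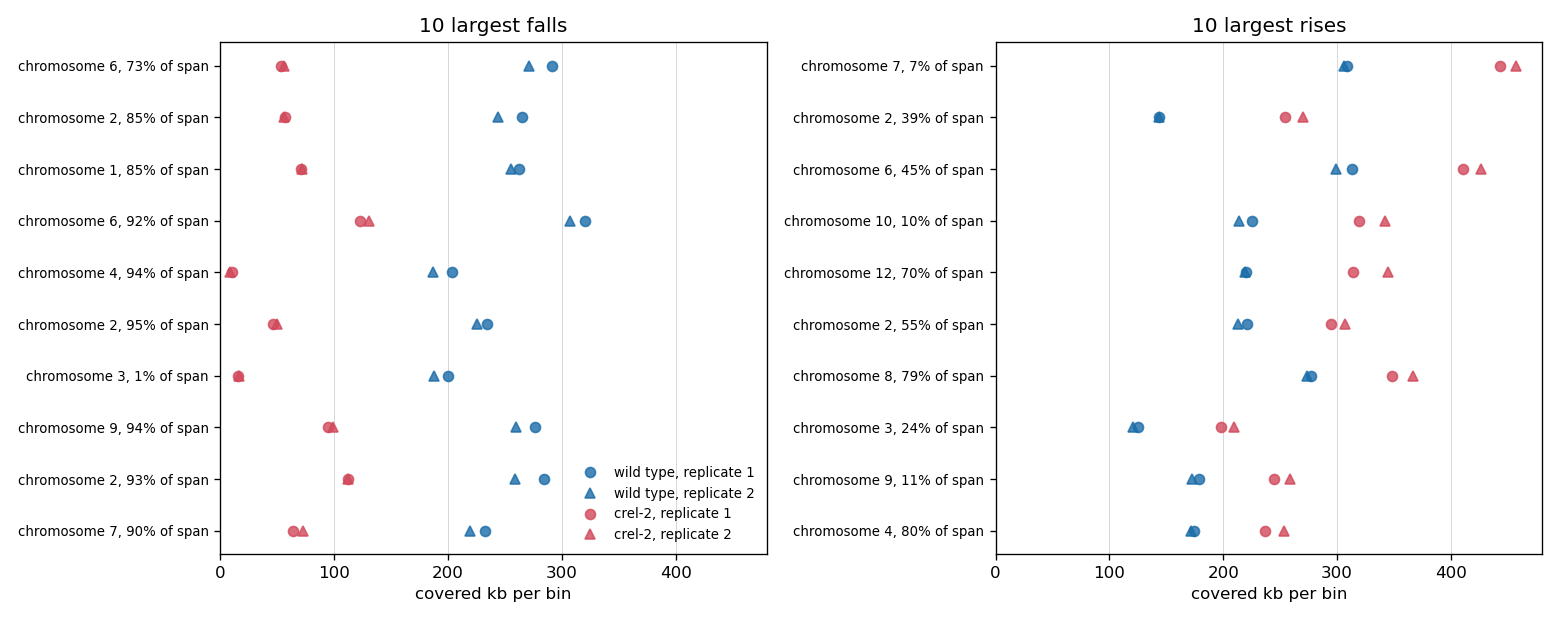
Covered kb (x axis) in each replicate for the 10 bins with the largest fall (left) and the 10 with the largest rise (right) in mean covered length, named by chromosome and position in % of its span (y axis). Circles are replicate 1 and triangles replicate 2. Only called bins without overlap between wild type and crel-2 could be picked, so the lack of overlap in the 20 bins was set by the choice. The lowest crel-2 values, 8.32 and 10.3 kb, are on chromosome 4.

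The richest wild-type bin of a chromosome did not have a common fate. Of these 12 bins, 7 were called lower in *crel-2* and 5 higher. Among all 756 tested bins 48.1% were called lower and 21.7% higher, and whether the 12 departed from these shares was not tested. The most covered of all, at 30 to 31 Mb of chromosome 2, fell from 406 and 400 kb to 273 and 279 kb (68.5%), while the bin at 27 to 28 Mb of the same chromosome was among the rises above. Lower calls were also made on chromosome 1 (27.6% of wild type), chromosome 4 (75.5%), chromosome 5 (57.9%), chromosome 6 (40.5%), chromosome 9 (84.0%) and chromosome 10 (62.4%). The bins of chromosomes 4 and 9 changed sign when the lists were scaled, to log2 changes of 0.03 and 0.18. The bins of chromosomes 7, 8 and 12 are among the 10 rises. The bin of chromosome 11, at 45 to 46 Mb, rose from 185 and 184 kb to 216 and 227 kb (120%) even though its number of peaks was called lower, from 48 and 48 to 32 and 32. The bin of chromosome 3, at 47 to 48 Mb, had 297 and 287 kb against 311 and 316 kb (107.5%, limma adjusted p = 0.044), and this call was lost without any 1 of the 4 replicates, with adjusted p from 0.072 to 0.21. The call on chromosome 11 was lost without either wild-type replicate (limma adjusted p = 0.051 and 0.053), and that on chromosome 9 without either *crel-2* replicate (limma adjusted p = 0.090 and 0.075).

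Some falls and rises came in stretches of neighbouring bins, and others in single bins. Bins in which both *crel-2* replicates were at least 50% below the wild-type mean formed 114 runs, of which 72 were single bins, and the longest held 9 bins, the first 9 Mb of chromosome 11. There 1.03 and 0.99 Mb were covered in the wild type and 0.36 and 0.35 Mb in *crel-2* (34.8%), and 355 and 319 peaks became 105 and 111. The next 4 runs held 6 bins each. They were at 78 to 84 Mb of chromosome 1 (29.0% of wild type), 7 to 13 Mb of chromosome 2 (23.9%), 44 to 50 Mb of chromosome 2 (29.4%) and 59 to 65 Mb of chromosome 10 (35.4%). The run at 7 to 13 Mb of chromosome 2 differed from the others in that little was covered there in the wild type, 0.074 and 0.059 Mb. Bins in which both *crel-2* replicates lay above both wild-type replicates formed 121 runs, of which 72 were single bins. The longest held 8 bins, at 20 to 28 Mb of chromosome 1, with 0.36 and 0.35 Mb in the wild type and 0.43 and 0.48 Mb in *crel-2* (129%), and 105 and 101 peaks against 101 and 103. Runs of 7 bins were found at 9 to 16 Mb of chromosome 7 (129%) and 35 to 42 Mb of chromosome 10 (117%). Counted inwards from each chromosome end, the uninterrupted stretch of bins with a lower mean in *crel-2* had a median of 6.5 bins over the 24 ends and held 3 bins or more at 21 of them. It reached 22 bins at the far end of chromosome 1 and was 0 at the beginning of chromosome 2 and the far end of chromosome 6. The 0 on chromosome 2 rests on a first bin with little coverage, 1.69 and 1.67 kb in the wild type and 4.34 and 3.23 kb in *crel-2*. Last bins are incomplete, since the span ends at the last peak.

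In every decile and every distance class, peaks were fewer and wider in *crel-2*. Single stretches departed from this, such as the run at 9 to 16 Mb of chromosome 7, where 90 and 85 peaks became 94 and 100. The number of peaks was 25.2% of wild type within 2 Mb of an end and 86.7% beyond 25 Mb, and it stayed under 100% in every decile of the span. The mean width was 168% of wild type in the outermost 2 Mb, where it went from 3.05 and 3.24 kb to 5.25 and 5.33 kb, and 128% beyond 25 Mb. In the 364 bins called lower, which were chosen by their coverage, covered length was 50.3% of wild type and the number of peaks 34.2%, and 204 of these bins had less than 50% of the wild-type coverage. In the 164 bins called higher, covered length rose from 11.5 and 11.2 Mb to 14.6 and 15.5 Mb while the number of peaks, 3110 and 2885 against 2896 and 2939, was 97.3% of wild type. Of these 164 bins, 28 were called higher and 20 lower in number. The 228 bins without a call had 99.5% of the wild-type coverage in 79.3% of the wild-type number of peaks. The median bin called higher lay 19.5 Mb from an end and the median bin called lower 9.45 Mb.

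Base by base, both losses and gains were found in every decile, in unequal amounts. Over the 12 chromosomes, 29.3 Mb lay under peaks in all 4 lists, 19.5 Mb in both wild-type lists and neither *crel-2* list, and 6.30 Mb in both *crel-2* lists and neither wild-type list. The bases absent from *crel-2* were 39.9% of those counted for the wild type, and the bases particular to *crel-2* were 17.7% of those counted for the mutant, leaving aside 18.4 Mb found in part of the replicates. The first share was 46.9% in decile 1, 16.3% in decile 3 and 57.6% in decile 10. The second share was 15.2% in decile 1, 22.4% in decile 3 and 7.95% in decile 10. In the bins called higher 0.88 Mb was lost and 3.43 Mb gained, and in the bins called lower 17.1 Mb was lost and 1.66 Mb gained. Even the first 1 Mb of chromosome 3 and the bin at 60 to 61 Mb of chromosome 4 kept 8.95 and 6.88 kb under peaks in all 4 lists.

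**Figure D5:**
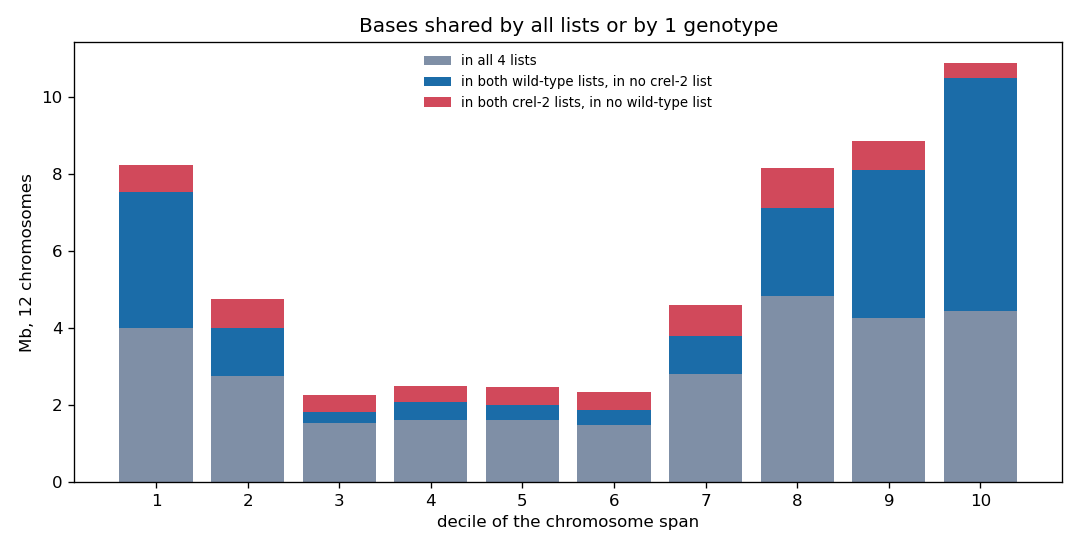
Mb of the 12 chromosomes (y axis) in each decile of the chromosome span (x axis), divided into bases under peaks in all 4 lists, in both wild-type lists only and in both crel-2 lists only. Bases found in part of the replicates of a genotype are left out. The wild-type-only segment is 6.05 Mb in decile 10 and 0.30 Mb in decile 3.

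The repeatability of the pattern was examined by pairing each *crel-2* replicate with a different wild-type replicate, which gives 2 estimates of every bin's change with no library in common. These correlated with r = 0.98 over 756 bins, as a description. Covered lengths correlated with r = 0.998 between the wild-type replicates, 0.997 between the *crel-2* replicates and 0.876 to 0.886 between genotypes. Of the 364 lower calls, 350 were shared with a fit that removed the replicate number. In all 364, both *crel-2* replicates lay below both wild-type replicates. Leaving out 1 replicate could therefore not reverse their direction, and such fits do not bear on repeatability of direction.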

How the data were processed

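H3K27me3 ChIP-seq was made from shoot apices of both genotypes, 2 replicates each. The authors used Bowtie2 to map single-end reads, SAMtools to drop poorly mapped and duplicate reads, and HOMER, by which they called peaks in each replicate. Their methods also describe scaling of reads down to the lowest depth. Whether the deposited lists reflect that step is not stated. The study lists read numbers for each ChIP replicate, and these were not used here. Settings of the peak caller are not given in the sources used here. The deposited lists hold the first and last position of each peak on SL2.40 names, whereas the methods name SL3.0, and positions are those of the files. The smaller covered total in *crel-2* was not corrected in the main results. The input libraries were not analysed here. The RNA-seq table holds the authors' own comparison (fold changes and p-values) without positions and was not used. Peaks on unplaced sequence were left out of the bins.

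Peaks were taken as listed, without merging. They were cut at bin edges and their lengths summed as covered length, and each peak was counted in the bin of its midpoint. Bins with a peak in at least 1 list were fitted with limma 3.58.1 (trend) in R 4.3.3, and p-values were adjusted by the Benjamini-Hochberg method. Chromosomes were fitted with limma without the trend on log2(covered Mb), and their p-values were adjusted likewise. Python 3.11.15, numpy 2.4.6 and pandas 2.3.3 did the rest. The programs were tested on simulated data. Alternatives covered the pseudocount, scale, filter, bin size and offset, peak width, end bins, scaling, replicate block and each replicate left out. Named bins are the 10 largest falls and 10 largest rises in covered length among called bins without overlap, the richest wild-type bin of each chromosome, and the 3 longest runs of each kind with ties. The bins, classes and rules were chosen with earlier results of these data known.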

Additional observations from a re-analysis of the deposited data

Results flagged for a closer look

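Peaks on unplaced sequence, which belongs to no chromosome and to no bin, moved against the direction of the chromosomes. Their covered length was 0.891 and 0.852 Mb in the wild type and 0.928 and 0.952 Mb in *crel-2* (mean 0.940 Mb), although their number was lower, 476 and 432 against 382 and 407. Both *crel-2* replicates thus lay above both wild-type replicates in covered length and below them in number.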

How the results depend on the processing

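The count of lower bins in covered length stayed between 280 and 370 under every alternative with bins of 1 Mb, and lower bins were 48.2% of bins of 500 kb and 50.8% of bins of 2 Mb. Scaling to the same total gave 354 higher bins, 202 lower and 328 higher bins in number of peaks, and 6 lower chromosomes, and reversed the richest bins of chromosome 4 (log2 change 0.032) and chromosome 9 (0.18). Leaving out each replicate gave 69 to 167 higher bins in covered length and 166 to 211 lower bins in number of peaks. With the replicate block, lower and higher bins in number of peaks were 228 and 18, and in covered length 358 and 150. Same-numbered replicates deviated together with r = 0.058 across bins, so the numbers were not taken to pair samples. The outer over interior difference was -0.72 with the central 70% as interior and -0.64 with the central 30%. Among bins of 100 to under 200 kb, those with neighbours of 100 kb or more lay -49.1 percentage points from those with neighbours under 50 kb. That difference leaves out the 33 to 34 bins with intermediate neighbours and rests on 7 to 9 bins on one side. Outer and interior bins, which take in the whole class, differed by -40.1 points. The 2 differences are between unlike groups and do not rank neighbours against position. Of 350 refits of the 27 named bins, 337 kept direction and call, 11 lost the call and 2 reversed. The largest falls and rises had been picked as called bins without overlap between genotypes. Leaving out 1 replicate could therefore not reverse them, and the 337 do not measure repeatability. The read depth behind a peak is unknown, and its part was not tested.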
